A study of Drosophila melanogaster with 24 samples.

Results

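The genes described here are 9 transcription factors and adaptors that choose and shape sensory organ precursors in Drosophila melanogaster: ato, amos, ac, sc, ase, sens, phyl, da and emc. They are a set named for that role, proposed with earlier results of these data known, and no threshold on their values was used. They are 9 of 13409 genes matched in the deposited count table. All 9 were among the 10993 genes that passed the filter on low counts. Messenger RNA was measured in 24 libraries, 2 for each of 12 groups. The groups combine 4 stages with 3 genotypes: the stages were wandering larvae, sampled as imaginal disc, and antennae of pupae aged 8 h, pupae aged 40 h and adults. Every genotype carried w[1118]. The wild type was w[1118];;+/+, the heterozygote w[1118];;rn[tot]/TM6 and the mutant w[1118];;rn[tot]/rn[tot], where rn (rotund) encodes a zinc-finger transcription factor and TM6 is a balancer chromosome. The heterozygote therefore differed from the wild type in TM6 as well as in its rn allele. The labels give neither the age of the adults nor whether the paired libraries came from separate animals, so p-values measure only the spread between these libraries, which may be technical.

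Proneural genes encode basic helix-loop-helix (bHLH) proteins that give groups of epidermal cells the capacity to become neural. They act as dimers with Daughterless, the product of da, while Extramacrochaetae, the product of emc, lacks the basic region and holds these proteins in complexes that do not bind DNA. Notch signalling between neighbours then restricts proneural expression to a single precursor, in which sens, ase and phyl act. In the antenna, ato is known to be needed for coeloconic sensilla and for the stretch-sensitive organ of the second segment, and amos for basiconic and trichoid sensilla. The ac and sc genes are best known for external bristles.

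Counts per library summed to between 17441575 and 33353768 over transcripts, and to between 8060181 and 15123603 over the transcripts chosen for the genes. Levels are counts per 1000000 counts of the library (CPM), scaled with TMM factors. Log2 changes are ± SE, with adjusted p-values from edgeR's quasi-likelihood test over all tested genes, called at 0.05. The rn transcript with the most counts (8785 of 31562 over 4 transcripts) was not lost in the mutant. In the disc it stood at 42.7 and 43.7 CPM in wild type, 48.0 and 51.1 in heterozygotes and 74.7 and 68.7 in mutants (0.73 ± 0.26 against wild type, adjusted p = 0.278). At 8 h it stood at 127 and 79.3 CPM in wild type, 73.9 and 82.2 in heterozygotes and 48.8 and 44.6 in mutants (-1.14 ± 0.26 against wild type, adjusted p = 0.0269). Its step from larva to 8 h differed between mutant and wild type (-1.87 ± 0.37, adjusted p = 0.0432). How the rn[tot] allele alters that transcript is not stated in the labels. All 7 antennal identity markers were present in the disc and in the antenna up to 40 h, with a summed level of 1643 to 2681 CPM over those 18 libraries. The summed level of 7 eye markers was 150.3 to 286 CPM in the disc, 162 to 262 CPM at 8 h, 133 to 160 CPM at 40 h and 265 to 323 CPM in the adult. The markers that made up the sum differed: 5 to 6 had a group mean above 1 CPM in the disc, and 3 in the adult. One of the 7, gl, was higher in the heterozygote disc than in wild type (3.92 ± 0.95, adjusted p = 0.0492). The sums therefore do not compare the amount of eye tissue between stages. Because the larval tissue is labelled as disc and every later one as antenna, stage and tissue cannot be told apart in the step from larva to 8 h. Wild type library 1 at 8 h stood apart from the other 5 libraries of that stage: its summed level of 6 neuronal markers was 502 CPM against 184 to 233, and mitochondrial transcripts made up 1.77% of its counts against 0.7002% in library 2.

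The summed level of the 4 proneural genes was highest in the antenna at 8 h, and all but ato were nearly gone by 40 h. The peak did not hold for each gene: in heterozygotes sc was at 63.8 and 43.0 CPM in the disc and 22.3 and 30.1 at 8 h. Summed over ato, amos, ac and sc, the 6 libraries of a stage held 74.7 to 103 CPM per kb of transcript in the disc, 251 to 428 at 8 h, 4.64 to 8.51 at 40 h and 0.125 to 1.79 in the adult, for all genotypes together. In wild type the test was run for each gene. From larva to 8 h, 6 of the 9 genes rose (amos, ac, ase, sens, phyl and da) and 0 fell, against 22.4% of all tested genes that rose and 17% that fell. From 8 h to 40 h, 9 of 9 fell, against 28% of all tested genes. From 40 h to the adult, phyl rose (28.8% of tested genes rose), ato and ase fell (25.8% fell) and the other 6 did not pass the test. The median log2 change of the 9 was 1.52, -5.01 and -1.199 over the 3 steps, beside medians of 0, 0 and 0.01 over all tested genes. The value of -1.199 is that of ac, which went from 4 counts to 2 (SE 1.70, adjusted p = 0.576). Both lie below the floor of 6 counts over a group. For the same step the median was 0.25 in heterozygotes and -1.83 in mutants, so it gives no common direction. In these bulk samples, fewer cells expressing a gene and less RNA per cell cannot be told apart.

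**Figure D1:**
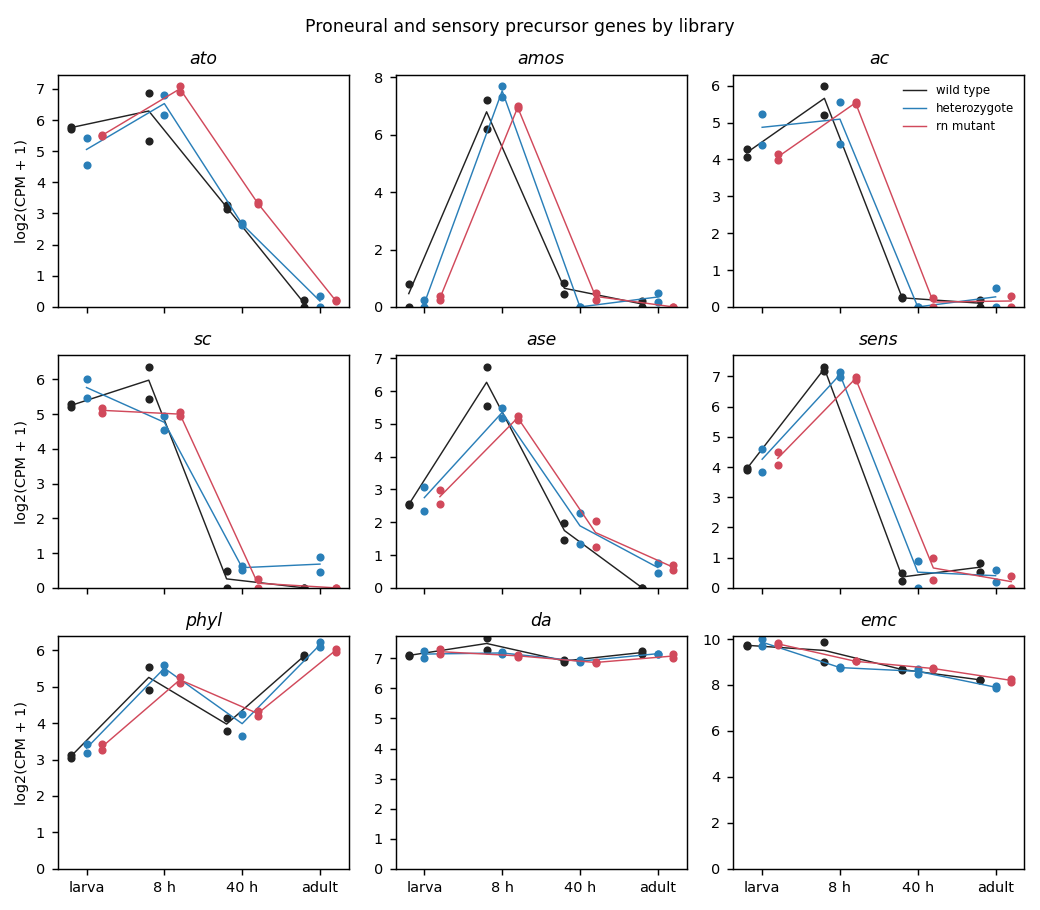
Level of each of the 9 genes by library (points) at the 4 stages, as log2(CPM + 1), coloured by genotype, with lines joining the group means. Of the 9 genes, amos, sens, ase, ato and ac have their highest group mean at 8 h in every genotype. For amos, sens and ase the 8 h libraries also overlap with no other stage. phyl is highest in the adult, and da lies between 115 and 206 CPM in all libraries.

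The same steps were tested in the other genotypes. From larva to 8 h, 5 genes rose in heterozygotes (ato, amos, ase, sens and phyl), where 15.9% of tested genes rose, and emc fell, where 13.8% fell. In mutants 6 rose (ato, amos, ac, ase, sens and phyl), where 15.4% rose, and emc fell, where 11.3% fell. The 4 genes that rose in all 3 genotypes were amos, ase, sens and phyl, beside 11.7% of tested genes. From 8 h to 40 h the same 7 genes fell in heterozygotes and in mutants, all but da and emc, where 25.5% of tested genes fell in each. These 7 genes fell in all 3 genotypes, beside 18.8% of tested genes. From 40 h to the adult, ato and ase fell in all 3 genotypes (21.1% of tested genes) and phyl rose in all 3 (23.5%). In heterozygotes 3 genes fell, emc being the third, where 26% of tested genes fell, and 28.8% rose. In mutants 25.7% of tested genes fell and 29.3% rose.

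The proneural gene amos (FBgn0003270, 2L 18596136 to 18596921, minus strand, 1 exon, in Ensembl's annotation of BDGP6) gave the sharpest peak of the 9. In wild type its libraries held 0.757 and 0 CPM in the disc, 73.5 and 147 at 8 h, 0.782 and 0.355 at 40 h, and 0.145 and 0 in the adult. The 8 h libraries were far above all others, although they differed from each other by a factor of 2. Heterozygotes reached 159 and 209 CPM at 8 h and mutants 126 and 120.4. Outside 8 h, the highest of the other 18 libraries was 0.782 CPM. The wild type disc held 8 counts in all and the 8 h antenna 2144, so the mean level was 292 times higher at 8 h (95% counting interval 138 to 1302). The fitted log2 change was 8.30 ± 0.70 (adjusted p = 3.61e-07), and 8.96 ± 0.72 in mutants (adjusted p = 2.64e-07). In heterozygotes, amos had 4282 counts at 8 h and 0 at 40 h, so its level was at least 613-fold lower at 40 h, with a floor of 6 counts over the group.

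The gene ato (FBgn0010433, 3R 8278052 to 8279274, plus strand, 1 exon) was already present in the disc and outlasted the other proneural genes. Its wild type libraries held 51.7 and 54.4 CPM in the disc, 38.8 and 116 at 8 h, 8.60 and 7.82 at 40 h, and 0 and 0.155 in the adult. The wild type libraries at 8 h lay on either side of the disc libraries, and the step did not pass the test there (0.55 ± 0.41, adjusted p = 0.301). In heterozygotes ato went from 22.6 and 41.9 CPM to 70.9 and 112 (1.501 ± 0.42, adjusted p = 0.0125), and in mutants from 45.1 and 44.0 to 137 and 118 (1.51 ± 0.42, adjusted p = 0.0126). Both of those calls were lost when single libraries were left out, at changes of 1.12 and 1.14 in heterozygotes and 1.40 to 1.53 in mutants. Both were also lost when only the libraries of the compared stages entered the fit (adjusted p of 0.0592 and 0.0668). At 40 h, ato was still at 5.20 to 9.27 CPM in the 6 libraries, whereas amos, ac, sc and sens were at 0.962 CPM or less in each. Its fall from 8 h to 40 h was -3.24 ± 0.46 in wild type (adjusted p = 1.7e-05), and the fall from 40 h to the adult was -6.58 ± 0.84 (adjusted p = 4.55e-06), where 176 counts became 2.

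The neighbouring genes ac (FBgn0000022, X 370031 to 370947) and sc (FBgn0004170, X 396060 to 397497), both on the plus strand and 25113 bases apart, were detected in every library of the disc and of the antenna at 8 h. In wild type, ac was at 15.9 and 18.4 CPM in the disc, 63.1 and 35.8 at 8 h, 0.196 and 0.178 at 40 h, and 0.145 and 0 in the adult. The rise of ac to 8 h passed in wild type (1.52 ± 0.50, adjusted p = 0.0256) and in mutants (1.52 ± 0.50, adjusted p = 0.0342), and not in heterozygotes, where it went from 36.6 and 19.97 to 20.2 and 46.0 CPM. Leaving out single libraries ended the call in wild type (adjusted p up to 0.153) and in mutants (up to 0.174). The sc libraries of the wild type held 38.2 and 35.9 CPM in the disc, 81.7 and 42.3 at 8 h, 0.391 and 0 at 40 h, and 0 and 0 in the adult. No genotype showed a change of sc from disc to 8 h that passed edgeR's test: its log2 change was 0.74 ± 0.38 in wild type (adjusted p = 0.136), -1.03 ± 0.38 in heterozygotes (adjusted p = 0.0575) and -0.11 ± 0.38 in mutants (adjusted p = 0.89). DESeq2 called the fall in heterozygotes (adjusted p = 0.0278). The fall to 40 h was large for both genes: ac went from 852 counts to 4 in wild type, a ratio of 265 (95% counting interval 69.2 to 2082), and sc from 1058 to 4, a ratio of 317 (86.0 to 2584). Both genes lie within the span of CG32816, which is on the other strand and shares none of their exon bases. The last proneural gene of the same complex, l(1)sc, which was not among the 9 and is given after its values were seen, had 18 to 36 counts in each library at 8 h (1.65 to 3.82 CPM) and at most 2 in any other.

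A further bHLH gene of the same cluster, ase (FBgn0000137, X 460747 to 463176, plus strand), is known as a marker of neural precursors that turns on after the proneural genes. Its wild type libraries held 4.73 and 4.89 CPM in the disc, 106 and 45.6 at 8 h, 2.93 and 1.78 at 40 h, and 0 and 0 in the adult. Heterozygotes were at 44.0 and 35.4 CPM at 8 h and mutants at 36.9 and 33.9, so wild type library 1 was more than double every other 8 h library. The rise passed in wild type (3.97 ± 0.48, adjusted p = 1.08e-05), heterozygotes (2.79 ± 0.47, adjusted p = 0.000262) and mutants (2.59 ± 0.46, adjusted p = 0.00048). At 40 h, ase was still detected in all 6 libraries, at 1.35 to 3.90 CPM. It fell again by the adult, where the wild type had 0 counts (at least 10.5-fold lower, with a floor of 6 counts over the group), the heterozygotes 10 and 6 counts and the mutants 8 and 6. In heterozygotes and mutants that last fall did not pass when single libraries were left out, with adjusted p up to 0.144 and 0.206.

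The zinc-finger gene sens (FBgn0002573, 3L 13396228 to 13401125, minus strand), whose product boosts proneural activity in the selected precursor, peaked at 8 h and was alike in the 6 libraries of that stage. In wild type it stood at 14.0 and 14.5 CPM in the disc, 159.5 and 145 at 8 h, 0.391 and 0.178 at 40 h, and 0.436 and 0.776 in the adult. Heterozygotes held 141 and 124 CPM at 8 h and mutants 125 and 117, so the 6 libraries of that stage spanned 117 to 159.5 CPM. The rise was 3.41 ± 0.46 in wild type (adjusted p = 2.34e-05), 2.87 ± 0.45 in heterozygotes (adjusted p = 0.000124) and 2.71 ± 0.45 in mutants (adjusted p = 0.000201). At 40 h the wild type had 6 counts against 2742 at 8 h, a ratio of 535 (95% counting interval 184 to 2618).

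The gene phyl (FBgn0013725, 2R 14427336 to 14432337, minus strand) encodes an adaptor that targets the repressor Tramtrack for degradation in precursor cells, and it was the only one of the 9 that ended highest in the adult in all 3 genotypes. Its wild type libraries were at 7.76 and 7.26 CPM in the disc, 29.2 and 45.2 at 8 h, 16.6 and 12.8 at 40 h, and 55.6 and 57.9 in the adult. Groups of successive stages did not overlap in wild type, as in 62%, 68.2% and 84.7% of all tested genes at the 3 steps. The steps were 2.31 ± 0.24 (adjusted p = 1.26e-06), -1.34 ± 0.23 (adjusted p = 0.000106) and 1.95 ± 0.23 (adjusted p = 2.06e-06). Adult heterozygotes held 73.7 and 66.5 CPM and adult mutants 60.9 and 64.8. The step from 40 h to the adult was 2.24 ± 0.23 in heterozygotes (adjusted p = 4.44e-07) and 1.79 ± 0.23 in mutants (adjusted p = 4.99e-06).

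The shared partner da (FBgn0267821, 2L 10388105 to 10393228, plus strand) varied least. It was at 138 and 134 CPM in the wild type disc, 206 and 153 at 8 h, 117 and 122 at 40 h, and 139.6 and 152 in the adult. Heterozygotes were at 129 to 152 CPM in the disc, at 8 h and in the adult, and at 116 and 122 at 40 h. The wild type rise to 8 h was small (0.40 ± 0.14, adjusted p = 0.0359) and did not pass without wild type library 1 at 8 h (0.17, adjusted p = 0.368), without either larval library (adjusted p of 0.111 and 0.157), without the filter on low counts (adjusted p = 0.0721) or when only the libraries of the compared stages entered the fit (adjusted p = 0.179). Its fall to 40 h was -0.58 ± 0.14 in wild type (adjusted p = 0.00245), against -0.28 ± 0.14 in heterozygotes (adjusted p = 0.116) and -0.22 ± 0.14 in mutants (adjusted p = 0.205). An antisense RNA, asRNA:CR45789, shares 362 exon bases with da, and since the strand setting of the counting is not given, their reads cannot be told apart.

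The antagonist emc (FBgn0000575, 3L 749400 to 753492, plus strand) had the highest level per length of the 9 at every stage of the wild type. It was at 864 and 831 CPM in the disc, 941 and 510.2 at 8 h, 401 and 414 at 40 h, and 296 and 299.8 in the adult. Wild type library 1 at 8 h was again the odd one, since the other 5 libraries of that stage lay between 425 and 523 CPM. The fall from disc to 8 h passed in heterozygotes (-1.11 ± 0.22, adjusted p = 0.000928) and in mutants (-0.76 ± 0.22, adjusted p = 0.0145), and not in wild type (-0.22 ± 0.22, adjusted p = 0.419). The wild type fell from 8 h to 40 h instead (-0.83 ± 0.22, adjusted p = 0.00381), a call that was lost without its library 1 (-0.33, adjusted p = 0.0964). The mutant call for disc to 8 h was lost when single libraries were left out, at changes of -0.71 to -0.77. It was also lost when only the libraries of the compared stages entered the fit (adjusted p = 0.0632). In heterozygotes emc also fell from 40 h to the adult (-0.69 ± 0.22, adjusted p = 0.0123), which did not pass without library 2 of either group (adjusted p of 0.101 and 0.0763).

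Levels can be ranked between genes per kilobase of the counted transcript. In the wild type disc, emc led at 414 ± 11.3 CPM per kb (SD, n = 2), followed by ato at 43.4 ± 1.56, da at 37.7 ± 0.774, sc at 25.8 ± 1.17, ac at 18.7 ± 1.91, sens at 5.82 ± 0.148, phyl at 4.08 ± 0.192, ase at 1.98 ± 0.0459 and amos at 0.482 ± 0.681. No neighbours in that order overlapped between libraries. At 8 h, emc at 354 ± 149 CPM per kb was followed by amos at 141 ± 66.6, ato at 63.2 ± 44.5, sens at 62.0 ± 4.32, ac at 53.9 ± 21.0, da at 49.8 ± 10.2 and sc at 43.1 ± 19.4. Last came ase at 31.3 ± 17.7 and phyl at 20.2 ± 6.14. From amos to phyl every pair of neighbours overlapped between libraries, so places next to each other below emc are not resolved at 8 h. The amos libraries, at 93.5 and 188 CPM per kb, overlapped with ato (31.7 and 94.6) but lay above sens, ac, da, sc, ase and phyl. Within each library amos came second. The da level rests on 1 of its 3 transcripts in the table, with 38175 of 108091 counts over the 3, so its place and its ratios to other genes depend on that choice. At 40 h and in the adult only 3 genes had a mean above 7 CPM per kb, namely emc, da and phyl. The ato libraries at 40 h, at 6.39 and 7.03 CPM per kb, overlapped with those of phyl, at 9.04 and 6.95.

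The balance among the 4 proneural genes shifted between disc and young antenna. As shares of their summed CPM per kb, ato held 48.5% and 49.7% in the wild type disc libraries, sc 30.5% and 27.9%, ac 19.9% and 22.4%, and amos 1.11% and 0%. The other 4 disc libraries held between 0% and 0.474% amos. At 8 h amos took the first place in all 6 libraries, with 37.3% and 53.5% in wild type, 67.9% and 62.1% in heterozygotes, and 46.4% and 48.1% in mutants. Over the same 6 libraries ato held 12.6% to 32.4%, ac 7.42% to 27.4% and sc 4.88% to 22.6%. The highest sc and ac shares and the lowest ato and amos shares were all in wild type library 1. Heterozygote library 1 of the disc also differed from its partner, with 17.9% ato against 39.9% and 43.1% sc against 34.8%. The ratio of ac to sc per kb was 0.652 to 0.899 in the 6 disc libraries and 1.21 to 2.40 in the 6 antennal libraries at 8 h, which do not overlap. These shares are descriptions without a test, and at 40 h and in the adult the 4 genes summed to too few counts (at most 102 per library) to divide.

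**Figure D2:**
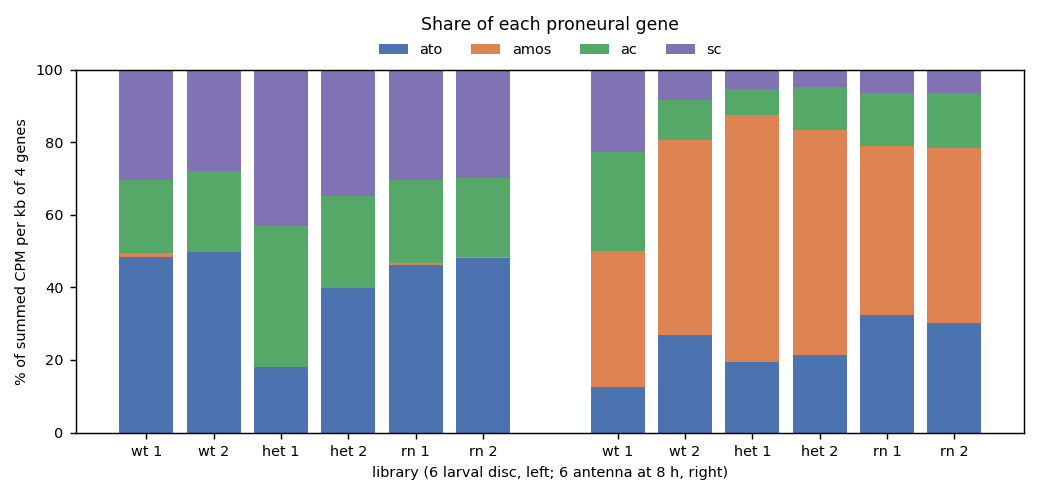
Share of each of 4 proneural genes in their summed level (% of CPM per kb, vertical axis from 0) in each library of the larval disc (left) and the antenna at 8 h (right), where wt is wild type, het the heterozygote and rn the mutant. The amos segment is at most 1.11% in the disc and 37.3% to 67.9% at 8 h.

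The level of emc relative to da fell with age. Per kb, emc exceeded da by a factor of 9.59 to 14.1 in the 6 disc libraries, 5.19 to 8.05 at 8 h, 5.44 to 6.42 at 40 h and 2.86 to 4.18 in the adult. Disc and adult libraries did not overlap with any other stage, whereas 8 h and 40 h did. At 8 h the heterozygotes were at 5.36 and 5.19, the mutants at 6.92 and 6.71, and the wild type at 8.05 and 5.85 on either side of the mutants. The ratio within a library is free of its scaling, but not of differences in how each transcript is counted, and it was not tested. For da, 1 of 3 transcripts was counted, with 38175 of 108091 counts, so the size of the ratio depends on that choice.

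**Figure D3:**
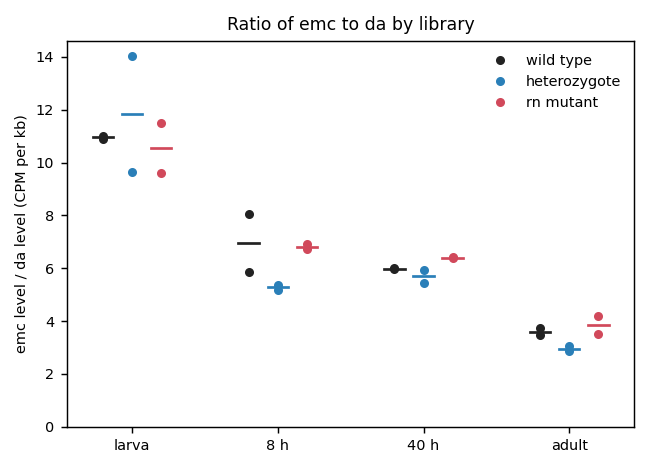
Ratio of the emc level to the da level (both CPM per kb) in each library (points) with group means (bars), by stage and genotype. The 6 disc libraries lie at 9.59 or above and the 6 adult libraries at 4.18 or below.

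The comparison of genotypes asks whether expression of these genes depends on rn. In each of the 12 comparisons of genotypes at a stage, 0 of the 9 genes passed edgeR's test, and the smallest adjusted p was 0.0639. Background calls were few as well. In the disc 1.54% of tested genes passed between mutant and wild type, 0.164% between mutant and heterozygote and 1.86% between heterozygote and wild type. At 8 h the shares, in the same order, were 3.36%, 0.091% and 3.94%, at 40 h 1.29%, 0.0819% and 1.02%, and in the adult 3.08%, 0.291% and 1.82%. At an unadjusted p under 0.05, 13 of the 108 tests of members passed (12.04%), beside 10.6% over all tested genes. DESeq2 called 6, and its share over all tested genes was not set beside them. The 6 tests of whether a stage step differed between genotypes also called 0 of 9 members each, and DESeq2 called 0. In those 6 tests, 0.282%, 0.391% and 0.746% of all tested genes were called for mutant minus wild type at the successive steps, and 0%, 0% and 0.0455% for mutant minus heterozygote. At an unadjusted p under 0.05, 4 of 54 member tests passed. The shares of all tested genes, in the same order, were 9.65%, 11% and 7.47%, then 4.09%, 3.16% and 3.59%. A missed threshold does not show that levels were alike, and the intervals differ much between genes.

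**Figure D4:**
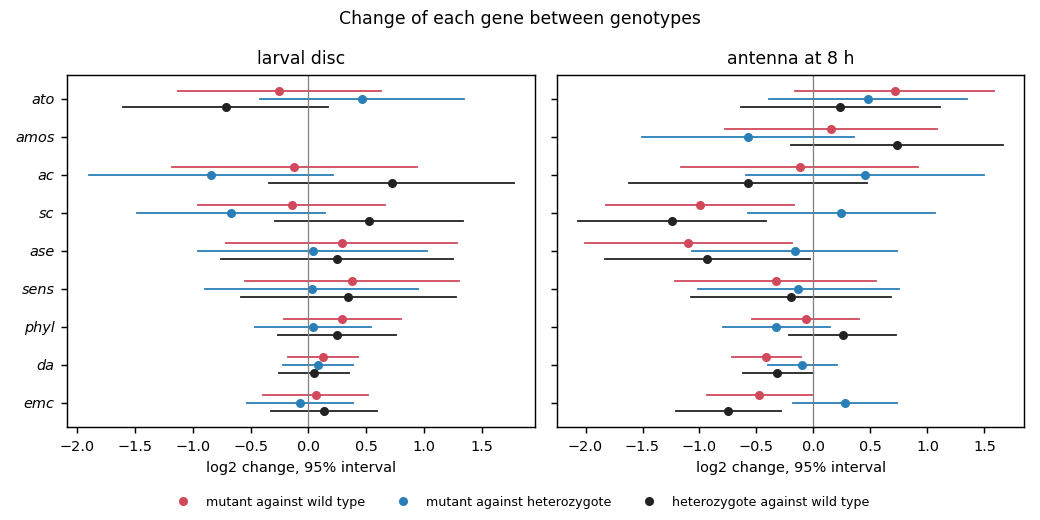
Log2 change of each gene between genotypes with its 95% interval, in the larval disc (left) and in the antenna at 8 h (right), from edgeR with n = 2 libraries a group. The amos row is left empty in the disc, where it had at most 8 counts a library, and no change shown passed the adjusted threshold.

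In the disc the intervals were narrow for da and emc. The mutant against wild type change of da was 0.13 (95% interval -0.18 to 0.43) and that of emc 0.06 (-0.39 to 0.52). For ato it was -0.25 (-1.13 to 0.62), for sc -0.15 (-0.96 to 0.67) and for sens 0.37 (-0.55 to 1.30). For sc alone, neither mutant library fell within the span of the 4 controls, at 35.0 and 32.0 CPM against 35.9 to 63.8, beside 16.2% of all tested genes. The heterozygote libraries of the disc were the least alike: ato was at 22.6 and 41.9 CPM, ac at 36.6 and 19.97 and sc at 63.8 and 43.0. Mitochondrial transcripts made up 1.34% of the counts in library 1 and 0.651% in library 2, and the 7 eye markers summed to 286 and 182 CPM. The part of these in the gene values was not tested.

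At 8 h, ato was at 137 and 118 CPM in mutants, above all 4 controls, which lay between 38.8 and 116. The change was 0.71 (95% interval -0.16 to 1.59) against wild type and 0.48 (-0.39 to 1.35) against heterozygotes, with adjusted p of 0.281 and 1. The amos change was 0.15 (-0.78 to 1.08) and -0.58 (-1.51 to 0.35). The ratio of amos to ato per kb was 1.43 and 1.59 in mutants, lower than in the 4 controls at 1.98 to 3.48, and is given as a description. da was at 133 and 137 CPM in mutants, below all 4 controls (139 to 206), with a change of -0.41 (-0.72 to -0.11) against wild type (adjusted p = 0.105) and -0.10 (-0.40 to 0.21) against heterozygotes. ato and da were the only members with both mutant libraries outside the control range at 8 h, beside 13.1% of all tested genes.

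The larger differences at 8 h involved the wild type. Relative to it, the change of sc was -0.996 in mutants (95% interval -1.82 to -0.17) and -1.24 (-2.06 to -0.41) in heterozygotes, and that of ase was -1.10 (-2.003 to -0.19) and -0.93 (-1.83 to -0.03). For emc it was -0.47 (-0.93 to -0.02) and -0.75 (-1.21 to -0.29), and none was past the adjusted threshold in edgeR. DESeq2 called da in mutants (adjusted p = 0.0273) and emc and sc in heterozygotes (adjusted p = 0.00767 and 0.0156). With wild type library 1 left out, the emc change in mutants was 0.03, beside -0.47 with all libraries. That of ac, which is not among the genes above, was 0.34, beside -0.12. For sc and ase, wild type library 2 alone (42.2 and 45.6 CPM) was still above every mutant and heterozygote library. Those spanned 22.3 to 32.4 CPM for sc and 33.9 to 44.0 CPM for ase. Library 1 had the highest summed level of neuronal markers of the stage. Its level of cato, a bHLH gene of the ato family that acts in the precursor lineage, was the lowest, at 6.01 CPM against 30.7 to 41.0. Beyond library 1, both wild type libraries had the highest summed levels of fat body markers at 8 h (360.2 and 367 CPM against 94.9 to 249 in the other 4) and of muscle markers (178 and 157 against 96.3 to 128). The part of these in the results was not tested. Against heterozygotes, which do not involve that library, the mutant changes of the 9 members at 8 h ran from -0.58 to 0.48.

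At 40 h the proneural genes were too low to compare between genotypes except ato, and in the adult all 4 were too low. At 40 h neither mutant library fell within the control span for ato (9.27 and 8.85 CPM against 5.20 to 8.60), da (115.8 and 115.1 against 116.3 to 122) and emc (423 and 417 against 360 to 414), beside 14.3% of tested genes, and the mutant against wild type changes were 0.14 (95% interval -0.83 to 1.11), -0.05 (-0.35 to 0.25) and 0.04 (-0.41 to 0.50). In the adult, da alone was outside the control range by this measure, which requires both mutant libraries, at 139.4 and 129 CPM against 139.6 to 152, beside 23.8% of tested genes. The adult ase counts of 0 and 0 in wild type, 10 and 6 in heterozygotes and 8 and 6 in mutants gave adjusted p of 0.101 (mutant) and 0.135 (heterozygote) in edgeR and 0.0176 and 0.0264 in DESeq2. The adult sc counts were 0 and 0 in wild type, 12 and 6 in heterozygotes and 0 and 0 in mutants, with adjusted p of 0.0871 in edgeR and 0.0145 in DESeq2 between heterozygote and wild type. All of these are near the floor of 6 counts.

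Genes that act with the 9 were followed in wild type through lists of the same pathway. Of 15 genes of precursor selection and lineage, 12 rose and 0 fell from larva to 8 h, with a median log2 change of 3.77, beside 22.4% and 17% of all tested genes. From 8 h to 40 h, 3 rose and 10 fell, beside 26.9% and 28%. In the earlier step heterozygotes had 10 that rose and 2 that fell, beside 15.9% and 13.8% of tested genes, and mutants 10 and 0, beside 15.4% and 11.3%. scrt, a zinc-finger gene of differentiating neurons, went from 5.87 and 3.85 CPM to 333 and 166 (5.69 ± 0.34, adjusted p = 2.9e-09) and then to 129 and 113. nerfin-1, a zinc-finger gene of newborn neurons, went from 1.33 and 1.63 CPM to 147 and 73.7, and to 3.03 and 3.73 at 40 h. cpo, which encodes an RNA-binding protein of the peripheral nervous system, rose at both steps, from 10.1 and 9.11 CPM through 392 and 141 to 1270 and 1186. CycE, which drives entry into DNA replication, went from 13.9 and 12.4 CPM to 78.9 and 38.6, and to 2.25 and 3.11. In each of these 4 genes wild type library 1 was the higher at 8 h, and the later fall of scrt was lost without it (adjusted p = 0.112). Of 8 cell cycle genes, 8 fell from 8 h to 40 h, beside 28% of tested genes.

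Most HLH repressor genes of the E(spl) type and most Bearded family genes fell between 8 h and 40 h. Whether they responded to Notch here was not measured. Of 10 genes for HLH repressors of the E(spl) type and gro, 4 rose and 1 fell from larva to 8 h (22.4% and 17% of tested genes), and 1 rose and 7 fell to 40 h (26.9% and 28%). dpn, a repressor of this type in neural precursors, was at 52.2 and 44.5 CPM in the disc, 186 and 158 at 8 h, and 3.52 and 3.02 at 40 h (-5.71 ± 0.31, adjusted p = 4.06e-10). E(spl)mgamma-HLH went from 22.5 and 26.7 CPM to 78.0 and 71.5, and to 1.76 and 2.58, and E(spl)mdelta-HLH from 39.4 and 37.8 to 136 and 92.2, and to 8.21 and 7.28. E(spl)m7-HLH was at 71.9 and 77.5 CPM in the disc and 102 and 103 at 8 h, a step that did not pass (adjusted p = 0.162), and fell to 16.8 and 18.5. Of 7 genes of the Bearded family, small inhibitors of the ubiquitin ligase Neuralized, 3 rose and 1 fell to 8 h, and 0 rose and 6 fell to 40 h, beside the same shares of tested genes. Among these, E(spl)m4-BFM went from 147 and 166 CPM to 0.587 and 0, and Brd from 64.7 and 68.7 to 0.391 and 0.178. E(spl)malpha-BFM went from 101 and 133 CPM to 1.76 and 1.95 and Tom from 111 and 105 to 14.1 and 13.3.

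Of 16 tested genes of the Notch pathway core, 5 rose and 3 fell to 8 h and 6 rose and 5 fell to 40 h, shares near those of all tested genes (22.4% and 17%, then 26.9% and 28%). From 40 h to the adult 0 rose and 15 fell, beside 28.8% and 25.8%. sca, a secreted protein that spaces precursors, rose from 117 and 106 CPM to 889.7 and 654 (2.79 ± 0.18, adjusted p = 6.97e-09) and fell to 92.3 and 82.2. Others peaked at 40 h: fng, a glycosyltransferase that modifies Notch, was at 145 and 165 CPM in the disc, 65.0 and 58.8 at 8 h and 351 and 369 at 40 h. The coactivator mam went from 229 and 199 CPM at 8 h to 1386 and 1494 at 40 h, and mib1, a ubiquitin ligase for Notch ligands, from 57.2 and 109.8 to 429 and 438.

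Of 10 tested genes of EGF receptor signalling, which recruits further sensory precursors, 6 rose and 1 fell to 8 h, beside 22.4% and 17% of tested genes. ru, a Rhomboid protease that releases the ligand, rose from 2.65 and 2.07 CPM to 87.4 and 86.2 (5.20 ± 0.23, adjusted p = 1.21e-10) and fell to 40.3 and 40.0 at 40 h. The ETS factor pnt went from 50.9 and 43.5 CPM to 291 and 158, and rho, a further Rhomboid protease, from 26.2 and 25.0 to 110.2 and 62.3. The ligand vn was at 18.0 and 19.4 CPM in the disc and 24.9 and 14.7 at 8 h, which did not pass (adjusted p = 0.856), and rose to 34.5 and 32.0 at 40 h. Of 12 prepattern factors, 2 rose and 5 fell to 8 h (22.4% and 17% of tested genes), and 1 rose and 6 fell to 40 h (26.9% and 28%). The Iroquois genes, activators of ac and sc in the wing disc, fell together: ara from 22.9 and 23.6 CPM to 1.09 and 1.19, caup from 34.0 and 33.6 to 1.64 and 2.02 and mirr from 58.2 and 61.4 to 16.3 and 14.3. eya, a retinal determination gene, was at 17.8 and 32.9 CPM at 8 h and at 0.978 and 0.799 at 40 h.

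**Figure D5:**
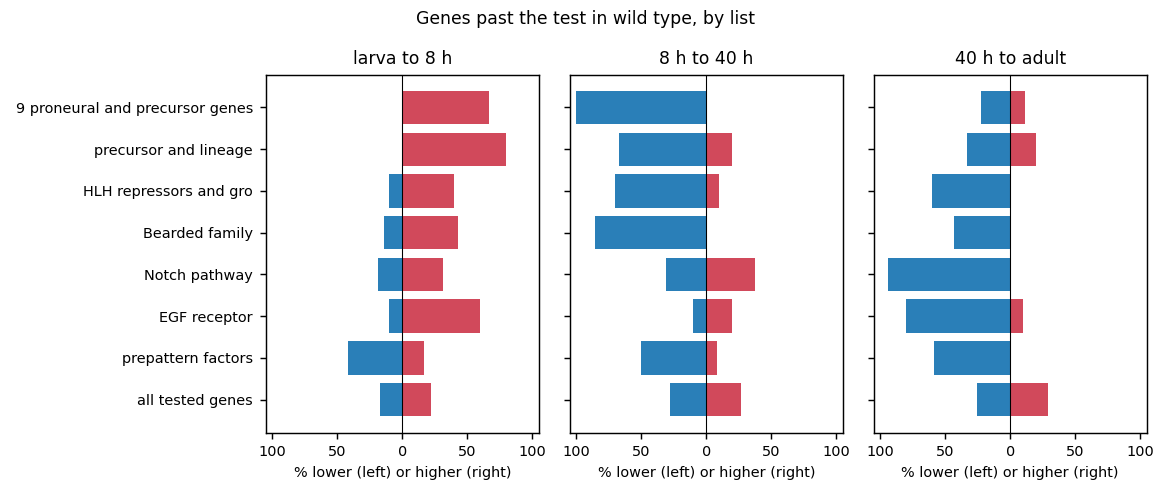
Percentage of genes that passed edgeR's test in wild type, lower to the left and higher to the right, for the 9 genes, 6 pathway lists and all tested genes, at the 3 steps between stages. From 8 h to 40 h, 9 of 9 genes and 6 of 7 Bearded family genes fell, against 28% of all tested genes.

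One listed gene was lower in mutants than in both controls. lz encodes a Runx factor that is known to act before amos in basiconic sensilla, and in the adult it was at 0.873 and 1.01 CPM in wild type, 1.87 and 1.198 in heterozygotes and 0 and 0.0787 in mutants. These were 25, 46 and 1 counts per group, so the wild type was 23.9 times the mutant (95% counting interval 1.89 to 534) and the heterozygote 39.1 times (3.18 to 806). Adult mutants differed from wild type by -4.26 ± 0.76 (adjusted p = 0.00376), and from heterozygotes by -4.95 ± 0.70 (adjusted p = 0.00189). Without mutant adult library 1, which had 0 counts, both were lost (adjusted p of 0.0737 and 0.0695). At 8 h, where amos peaked, lz was at 21.4 and 24.7 CPM in wild type, 22.7 and 21.3 in heterozygotes and 14.1 and 19.8 in mutants, with no call (adjusted p of 0.355 and 1). In the disc both mutant libraries (6.75 and 7.36 CPM) were below all 4 controls (9.26 to 14.3), and the changes of -0.69 ± 0.31 (wild type as reference, adjusted p = 0.53) and -0.76 ± 0.31 (heterozygote as reference, adjusted p = 0.672) did not pass. At 40 h lz was at 7.92 and 10.003 CPM in mutants and 5.67 to 9.64 in controls. Called against wild type alone, nerfin-1 was higher in adult mutants (1.89 ± 0.48, adjusted p = 0.0411), as were 1.91% of tested genes. It was at 4.91 and 4.09 CPM there and 0.727 to 1.89 in controls. Heterozygotes at 8 h were lower than wild type for scrt (-1.08 ± 0.27, adjusted p = 0.0399) and cpo (-1.26 ± 0.32, adjusted p = 0.0404), as for 2.69% of tested genes. The scrt change was -0.49 without wild type library 1 at 8 h.

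Also at 8 h, 4 genes of these lists were called lower in mutants relative to wild type, as were 2.38% of all tested genes. They are named after their values were seen, so their number is not a result about the lists. neur, the ubiquitin ligase of Notch ligands in precursors, was at 113 and 61.4 CPM in wild type, 56.2 and 50.3 in heterozygotes and 45.2 and 38.6 in mutants (-1.05 ± 0.27, adjusted p = 0.0419). S, which carries EGF receptor ligands to the Golgi, changed by -0.80 ± 0.19 (adjusted p = 0.0336), aos, which encodes a secreted inhibitor of the same pathway, by -0.85 ± 0.20 (adjusted p = 0.0269), and sv, a Pax gene of the shaft and sheath lineage, by -1.42 ± 0.38 (adjusted p = 0.0491). The heterozygotes too were lower than wild type for S (-0.73 ± 0.19, adjusted p = 0.0458) and sv (-1.41 ± 0.38, adjusted p = 0.0470). None of the 4 passed between mutants and heterozygotes (adjusted p of 1 each), and all 4 calls were lost without wild type library 1 (adjusted p of 0.298 to 0.884), without either mutant library (0.0819 to 0.279) and when only the libraries of that stage entered the fit (0.598).

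Genes whose log2 CPM followed each member most closely over the 24 libraries were found by Pearson's r, as a description. The libraries share stages and are not independent of each other. The closest gene to ato was pnut (r = 0.991), followed by E(spl)m7-HLH (0.987) and bib (0.983). Those closest to ac were ana3 (0.983), Brd (0.982) and E(spl)malpha-BFM (0.980), and those closest to sc were glu (0.986), Cks30A (0.984) and sti (0.982). amos was nearest to CG15212 (0.983), CG1850 (0.981) and Edg78E (0.981). sens was nearest to dve (0.980), cato (0.968) and Mal-A3 (0.967), ase to Tet (0.974), CG44774 (0.971) and Tre1 (0.971), and phyl to CG11147 (0.980), CG31100 (0.979) and CG5973 (0.963). For emc they were CNPYb (0.976), Apl (0.973) and PIG-B (0.973). The weakest likeness was that of da, whose nearest genes were Gyc76C (0.854), bab2 (0.831) and CG3107 (0.819).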

How the data were processed

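The authors deposited unnormalized read counts for 29872 FlyBase transcripts in 24 libraries, and a normalized table that was not used here. Per the labels' protocols, polyadenylated RNA from RNeasy extractions went into Illumina stranded libraries. The submitters' processing notes name BWA 0.7.12, CASAVA 1.8 and DESeq2. Genome build, counting program and strand setting were not given in the sources used here.

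From these counts, 29393 transcripts were matched to 13409 genes of Ensembl's BDGP6 annotation (98.7% of counts), and 479 were left out. Each gene took the transcript with the highest total. Of counts from 2 to 20, 79.4% were even, as when both mates of a pair are counted, so floors were set at 6 counts over a group, and counting intervals, which cover counting error only, were computed on halved counts. The main test was edgeR's quasi-likelihood test (version 4.0.16, R 4.3.3; TMM, filterByExpr with a minimum count of 10, 12 groups, 12 residual degrees of freedom, two-sided, Benjamini-Hochberg over 10993 genes). The procedure was tested on simulated data.

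The members and the 18 lists were chosen with earlier results of these data known. The text names all 9 members, up to 4 genes of each of 6 pathway lists with the smallest adjusted p in the 2 earlier steps or a mutant comparison, any list gene called against both controls, and the 3 genes most like each member. Of the 141 listed genes, 139 were in the table, and Dl and h were not analysed here. Alternatives were RLE size factors, no filter, sums over transcripts, the replicate number as a block, the compared stages alone, DESeq2 1.42.0, each library left out, and halved counts.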

Additional observations from a re-analysis of the deposited data

Results flagged for a closer look

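The step from 40 h to the adult differed between genotypes for lz and dpn by edgeR's test of the difference itself. For lz the log2 change was -7.50 in mutants, against -2.85 in wild type and -2.43 in heterozygotes. The difference of mutant minus wild type was -4.65 (SE 0.84, adjusted p = 0.0125) and that of mutant minus heterozygote -5.07 (SE 0.80, adjusted p = 0.0211). Both rest on the 1 count of the adult mutant libraries, and both were lost with DESeq2 (adjusted p of 0.053 and 0.098) and without mutant adult library 1 (0.110 and 0.344). For dpn the change was -0.81 in mutants and -0.83 in heterozygotes, against -3.80 in wild type, so the wild type stood apart from both. The difference of mutant minus wild type was 2.99 (SE 0.65, adjusted p = 0.039) and that of mutant minus heterozygote 0.02 (SE 0.59, adjusted p = 1.0). Adult heterozygotes were themselves higher than wild type (2.57, SE 0.50, adjusted p = 0.0108). Its adult counts were 4 and 2 in wild type, 18 and 24 in heterozygotes and 14 and 10 in mutants. The call of 2.99 was lost without 7 of the 8 libraries involved, left out singly (adjusted p up to 0.234). The causes were not tested.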

How the results depend on the processing

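Of 52 member changes past the threshold, 359 of 364 values under other settings kept their call and 5 lost it. With single libraries left out, 182 of 208 kept it, 26 lost it and 0 changed sign. The number of members called moved from 3 to 5 for the step from 40 h to the adult in wild type and in mutants, with DESeq2 and with the compared stages alone, and in heterozygotes from 4 to 6 and 5. For larva to 8 h in heterozygotes DESeq2 called 7 members, where edgeR called 6. DESeq2 called 1 member in mutants against wild type at 8 h and 1 in the adult, and 2 in heterozygotes against wild type at each of these stages. With halved counts, an alternative chosen after seeing the data, 1 was called in heterozygotes at 8 h. With single libraries left out, every fit called fewer members for larva to 8 h in mutants. In some fits fewer were called for 8 h to 40 h in wild type and for 40 h to the adult in heterozygotes and mutants. For larva to 8 h in wild type and heterozygotes, some fits called fewer and others more. For 40 h to the adult in wild type, some called more. More were called in some fits for mutants and for heterozygotes against wild type at 8 h. The same held for the difference between mutant and wild type at the 2 earlier steps. The highest numbers in those last 4 comparisons were reached without wild type 8 h library 2, where library 1 stood alone. The share of all tested genes called was not set beside these numbers, for these fits, DESeq2 or the other settings. They are therefore not a result about the members. The cause was not tested.

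Of 27 uncalled genotype changes of members at 8 h, 9 values over 7 changes had the other sign with a library left out. For mutants against wild type, the changes with single libraries left out ran from -0.26 to 0.75 for amos, -0.47 to 0.34 for ac, -0.35 to 0.29 for phyl and -0.85 to 0.033 for emc, where amos was lowest and ac and emc highest without wild type library 1. phyl was 0.0093 without mutant library 2. For heterozygotes against wild type they ran from -0.34 to 1.24 for ato and -0.022 to 0.61 for phyl, both lowest without wild type library 1, and ato was -0.13 without heterozygote library 2. For mutants against heterozygotes ac ran from -0.021 to 1.16, lowest without heterozygote library 1. RLE size factors moved the median of all genes for 40 h to the adult from 0.01, 0.03 and 0.03 to 0.14, 0.16 and 0.18.

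Replicate numbers are shared between groups but are not said to mark pairs. Correlations of replicate differences over 21 pairs of groups ran from -0.139 to 0.0888. With the replicate number as a block, 52 member changes were called, as without it, and all 27 counts were equal.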
